A study of Mus musculus with 23 samples.

Results

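Marker genes of the hippocampal subfields were followed in RNA sequencing of the mouse hippocampus: 9 genes that mark the dentate gyrus, 6 that mark CA1, 6 that mark CA3 and 8 that mark CA2. These 29 genes were taken by name as subfield markers, out of 45706 gene identifiers in the count table. Each matched 1 identifier, and all 29 passed the filter on low counts, which left 15870 genes for testing. The samples were hippocampi of female mice with both copies of the insulin gene Ins2 (Ins2+/+, WT, n = 12) or with neither (Ins2-/-, KO, n = 11). No treatment, strain or age is given in the labels. The labels do not say whether a group is limited to 1 litter or line. The question put to these genes was whether the balance of subfields differed between KO and WT. A further question was how far it varied with Ttr, a choroid plexus gene, and Tcf7l2, a gene of thalamus and habenula. Both were taken to mark tissue carried along in dissection. Library numbers are those of the labels.

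The hippocampus is wired as a chain of distinct principal cell types. Granule cells of the dentate gyrus receive entorhinal input and send mossy fibres to CA3 pyramidal cells, which project to CA1, the main output. CA2 is a small field between CA3 and CA1 with a known part in social memory. Each field has genes that its principal cells express far more strongly than those of the neighbouring fields. In RNA of a whole hippocampus, the level of such a gene depends both on how much of the field was in the dissected piece and on transcription in its cells. Fewer cells of a type and less RNA per cell cannot be told apart in such bulk samples.

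Library totals ranged from 13792274 to 22953261 counts. Ins2 had 0 counts in all 11 KO libraries, which over that group allows up to 0.0156 CPM (counts scaled to a common library total) by counting error alone. In WT it was barely measured, with 26 counts in 7 of 12 libraries, 18 of them in WT library 17. The labels do not say that each library came from its own animal, so p-values measure the spread between these samples. KO library 8 was set aside from the comparison: the summed level of 12 hypothalamic genes was 1575 CPM there and 1.61 to 18.1 CPM in the other 22 libraries. Its marker values are given separately. Over all genes, the comparison of 10 KO with 12 WT libraries called 2 of 15870 genes, 0.0126% (edgeR quasi-likelihood F test, Benjamini-Hochberg adjusted p below 0.05). These were Ccnd1 and the gene model Gm26793, named here after their values were seen because they make up the whole count.

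Promoters of 3 dentate markers are shown because these genes had the lowest KO over WT ratios among the markers with an unadjusted p below 0.05, and belong to the list whose genes varied together most closely. Each sequence runs 5′ to 3′ on the gene's strand, from 250 bases before to 50 bases after the start in RefSeq on GRCm38.p6. The windows are chr1:190170778-190171077 on the minus strand for Prox1, chr1:120340332-120340631 on the plus strand for C1ql2 and chr9:8543892-8544191 on the plus strand for Trpc6. Capitals mark CAGATG, an E-box motif of the kind bound by proneural transcription factors.
Prox1: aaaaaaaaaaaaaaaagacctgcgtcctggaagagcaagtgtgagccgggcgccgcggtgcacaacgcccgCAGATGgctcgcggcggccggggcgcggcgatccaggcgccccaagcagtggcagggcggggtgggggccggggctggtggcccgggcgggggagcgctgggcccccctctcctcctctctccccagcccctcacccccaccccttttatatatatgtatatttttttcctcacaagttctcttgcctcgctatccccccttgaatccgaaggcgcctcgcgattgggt
C1ql2: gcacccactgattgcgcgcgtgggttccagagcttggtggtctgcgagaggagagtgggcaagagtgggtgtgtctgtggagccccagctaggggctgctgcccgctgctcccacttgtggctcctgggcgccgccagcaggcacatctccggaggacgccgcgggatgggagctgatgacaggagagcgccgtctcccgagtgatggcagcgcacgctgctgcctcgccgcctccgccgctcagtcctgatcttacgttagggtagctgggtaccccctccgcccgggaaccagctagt
Trpc6: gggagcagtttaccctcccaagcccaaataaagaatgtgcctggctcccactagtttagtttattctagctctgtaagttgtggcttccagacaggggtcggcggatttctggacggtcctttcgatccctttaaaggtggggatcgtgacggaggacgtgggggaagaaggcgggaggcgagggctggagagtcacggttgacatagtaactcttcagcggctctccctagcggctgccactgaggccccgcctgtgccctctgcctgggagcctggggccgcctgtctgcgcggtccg
RefSeq promoters were found for 23 of the 29 markers. The motif CAGATG, searched on both strands, occurred in 3 of these 23 (Prox1, Wfs1 and Iyd) and in 17.2% of 32851 promoters of the same length. In Prox1 it begins 179 bases before the start, and the other 8 dentate promoters did not hold it. The cyclic AMP response element TGACGTCA, which reads the same on both strands, was in 0 of the 23 and in 1.79% of all promoters.

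None of the 29 subfield markers passed the test between KO and WT, against 0.0126% of all genes. Their adjusted p-values in edgeR's quasi-likelihood test ran from 0.96 to 0.98. For each of the 29 the KO and WT levels overlapped. Over all genes, 0.0126% did not overlap. At an unadjusted p below 0.05, Trpc6, Bok, Prox1, C1ql2 and Stxbp6 were lower in KO and Ntsr2 was higher, so 5 of 29 markers were lower and 1 higher, against 1.93% and 2.18% of all genes. DESeq2 likewise called 0 markers, and at an unadjusted p below 0.05 it gave 6 of the 29 markers and 756 of all 15870 genes. The dentate list was the most one-sided of the subfield lists. All 9 of its genes had a fitted fold change below 0, with a median log2 fold change of -0.19, while 48.4% of all genes were below 0 and their median was 0.0032. CA1 markers were below 0 for 2 of 6 (median 0.083), CA3 markers for 4 of 6 (median -0.10) and CA2 markers for 4 of 8 (median 0.015). These 3 medians moved with the libraries. Over the fits without 1 library, the CA1 median ran from 0.039 (without WT library 11) to 0.14 (without KO library 6), the CA3 median from -0.16 (without KO library 12) to -0.071 and the CA2 median from -0.060 (without KO library 12) to 0.047. With all 23 libraries the CA1 median was -0.045 and the CA3 median -0.19. Without the libraries high in Ttr the CA1 median was 0.20, the CA3 median -0.17 and the CA2 median -0.039, which was -0.030 with Ttr and Tcf7l2 in the model. The 9 dentate genes share their libraries and vary together, so their directions are not separate observations.

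**Figure D1:**
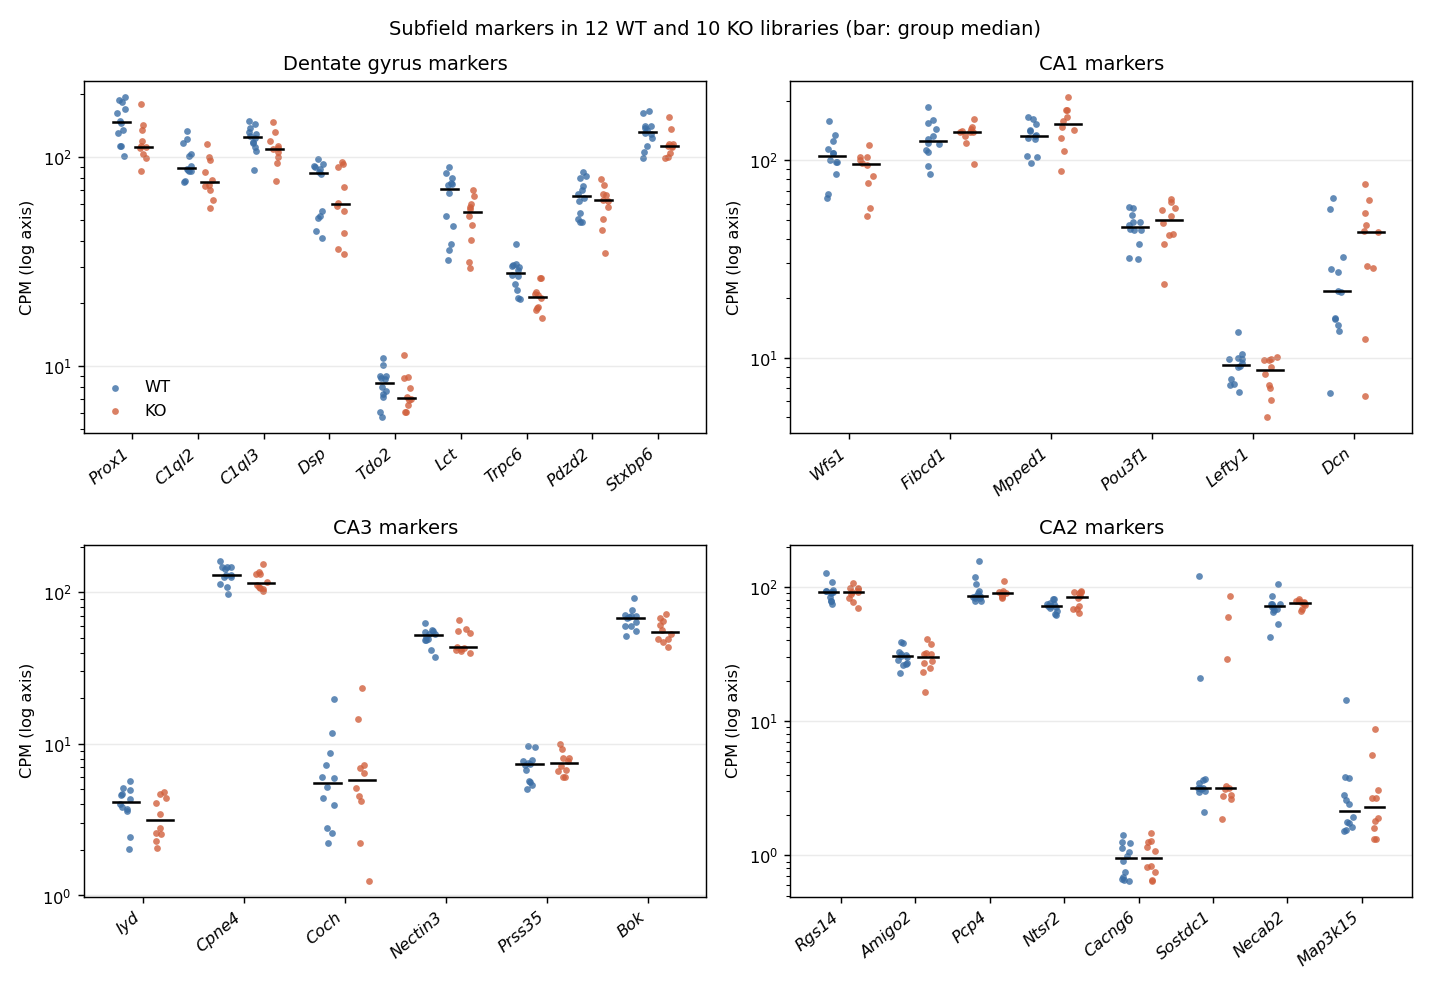
Level of each of the 29 subfield markers in CPM (vertical log axes) in 12 WT libraries (blue) and 10 KO libraries (orange), 1 panel per subfield, where each point is a library and each bar a group median. The groups overlap for every gene, and Sostdc1, Coch and Map3k15 have a few libraries above the rest in both genotypes.

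The dentate markers comprise a transcription factor, secreted synaptic proteins, a channel, a junction protein and enzymes. Per kilobase of exon, C1ql3 and C1ql2 had the highest mean levels in WT (48.8 and 48.7 CPM per kb) and Tdo2 the lowest (2.11 CPM per kb). Prox1, the homeobox factor that sets and maintains granule cell identity, lies at chr1:190118035-190170714 on the minus strand (GRCm38, GENCODE M21). Its level ran from 102 to 194 CPM in WT (median 147) and from 86.4 to 179 CPM in KO (median 113). The groups overlapped, with 2 KO libraries below every WT library and 9 of 10 below the WT median. The log2 fold change was -0.31 (SE 0.12, unadjusted p = 0.020). Prox1os overlaps Prox1 on the opposite strand, and the use of strand in counting is not given in the sources used here, so its reads may be included.

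Trpc6, a cation channel opened by diacylglycerol (chr9:8544142-8680741, plus strand), had the smallest unadjusted p of the 29 genes. It was measured at 21.1 to 38.3 CPM in WT (median 28.1) and 17.1 to 26.6 CPM in KO (median 21.6). All 10 KO libraries lay below the WT median and 4 of them below every WT library, yet the ranges overlapped. Its log2 fold change was -0.37 (SE 0.095, unadjusted p = 0.00064), with an adjusted p of 0.96 over all genes in edgeR's test. Over the fits that left out 1 library it stayed between -0.42 and -0.33.

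C1ql2 and C1ql3 encode C1q-like proteins secreted at mossy fibre synapses. C1ql2 (chr1:120340582-120343174, plus strand) ran from 75.9 to 133 CPM in WT (median 89.1) and from 57.1 to 116 CPM in KO (median 75.8). Here 5 KO libraries lay below every WT library, while KO library 22, the highest of the KO libraries, lay inside the WT range. The log2 fold change was -0.26 (SE 0.12, unadjusted p = 0.036). C1ql3 ran from 86.6 to 150 CPM in WT (median 125) and from 77.2 to 147 CPM in KO (median 110.0), a log2 fold change of -0.16 (SE 0.093, unadjusted p = 0.10). Only 1 KO library was below the WT range of C1ql3, which the gene models Gm37824 and Gm37811 overlap on the opposite strand.

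Stxbp6, a syntaxin-binding protein known as amisyn (chr12:44852484-45074709, minus strand), ran from 99.7 to 166 CPM in WT (median 132) and from 99.3 to 157 CPM in KO (median 113). The ranges nearly coincided, and the log2 fold change was -0.18 (SE 0.087, unadjusted p = 0.049). Lct, the lactase gene, ran from 32.3 to 90.2 CPM in WT (median 70.5) and from 29.4 to 69.5 CPM in KO (median 54.5). All 10 KO libraries were below the WT median of Lct, but its spread was wide in both genotypes and the log2 fold change of -0.30 had an SE of 0.19 (unadjusted p = 0.14). Dsp, the desmosomal linker desmoplakin, which Gm10129 overlaps on the opposite strand, had a log2 fold change of -0.19 (SE 0.20), Pdzd2, a scaffold with many PDZ domains, -0.13 (SE 0.13), and Tdo2, the tryptophan dioxygenase of the kynurenine pathway, -0.10 (SE 0.12). Each of these 3 differed between genotypes by about its SE or less.

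The same libraries marked the ends of the range for most dentate genes. WT library 15 or WT library 1 was lowest among WT for 8 of the 9, the exception being Pdzd2, and KO library 16 was lowest among KO for 8 of the 9, the exception being Tdo2. KO library 22 was highest among KO for 7 of the 9. The dentate median was sensitive to the set of libraries. It was -0.32 with KO library 8 included, -0.31 without the 5 libraries highest in Ttr, and -0.16 with Ttr and Tcf7l2 in the model. Over the fits that left out 1 library it ran from -0.27 (without KO library 6) to -0.16 (without KO library 16). The sign of all 9 fold changes stayed below 0 in all 8 alternatives and all 22 fits without 1 library, and in none was a dentate marker called.

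**Figure D2:**
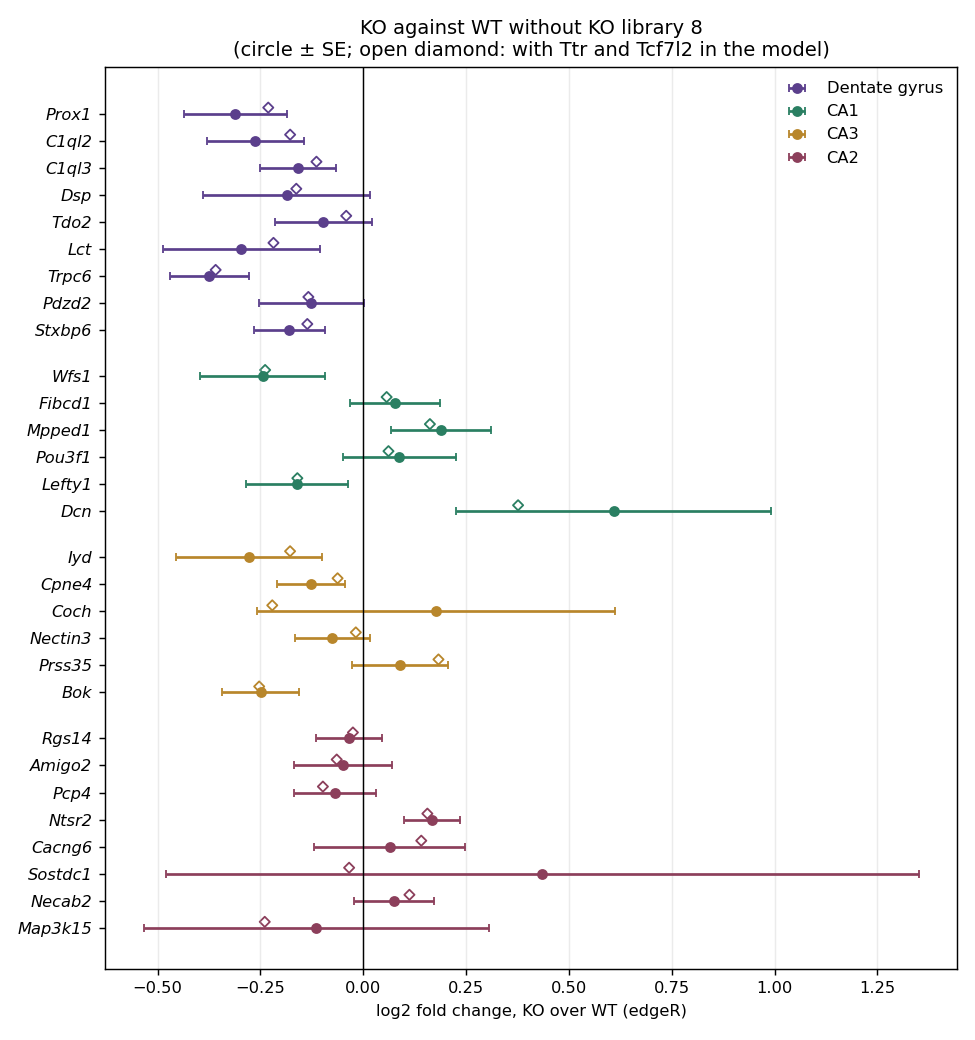
Log2 fold change of each marker, KO over WT, from the edgeR fit without KO library 8 (filled circles, bars of 1 SE), and from the fit that also holds Ttr and Tcf7l2 (open diamonds), coloured by subfield. All 9 dentate circles and diamonds lie below 0, the other subfields fall on both sides, and Sostdc1 has the widest bar (SE 0.91).

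CA1 markers did not share a direction. Wfs1, the endoplasmic reticulum protein wolframin, ran from 64.6 to 159 CPM in WT (median 105) and from 52.4 to 119 CPM in KO (median 95.8), a log2 fold change of -0.24 (SE 0.15, unadjusted p = 0.12). Mpped1, a metallophosphoesterase domain protein, leaned the other way, with 96.7 to 166 CPM in WT (median 133) and 88.2 to 209 CPM in KO (median 152). Its log2 fold change was 0.19 (SE 0.12, unadjusted p = 0.14), and 4 KO libraries lay above every WT library while 1 lay below. Fibcd1, a receptor for acetylated sugars, differed by 0.078 (SE 0.11), and Pou3f1, a POU-domain transcription factor that the gene model Gm2164 overlaps on the opposite strand, by 0.088 (SE 0.14). Lefty1, an inhibitor of Nodal signalling, was at 6.73 to 13.5 CPM in WT and 4.99 to 10.1 CPM in KO, with a log2 fold change of -0.16 (SE 0.12).

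KO library 6 was lowest among KO for 5 of the 6 CA1 markers. Dcn, which encodes the matrix proteoglycan decorin and is also a fibroblast gene, was the exception. It ran from 6.66 to 64.2 CPM in WT (median 21.7) and from 6.36 to 75.5 CPM in KO (median 43.5), with a log2 fold change of 0.61 (SE 0.38, unadjusted p = 0.13). The summed level of 6 meningeal fibroblast genes ran from 25.2 to 728 CPM in WT and from 19.4 to 421 CPM in KO, and 5 of those 6 genes had a fitted fold change above 0 (median 0.25, 0 called). Their part in the level of Dcn was not tested.

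CA3 markers included the second smallest unadjusted p. Bok, a member of the Bcl-2 family (chr1:93685660-93695764, plus strand), ran from 51.3 to 92.1 CPM in WT (median 68.0) and from 43.6 to 72.2 CPM in KO (median 54.7). In 4 KO libraries its level was below every WT library, and 9 of 10 were below the WT median. The log2 fold change was -0.25 (SE 0.094, unadjusted p = 0.014). Cpne4, a calcium-dependent membrane-binding copine, ran from 98.0 to 161 CPM in WT (median 130) and from 103 to 154 CPM in KO (median 114), so that the KO range lay inside the WT range (log2 fold change -0.13, SE 0.083). Nectin3, an adhesion molecule of the contacts between mossy fibres and CA3 dendrites, was at 37.5 to 62.4 CPM in WT and 39.99 to 66.0 CPM in KO (log2 fold change -0.076, SE 0.091). Iyd, the iodotyrosine deiodinase, was at 2.04 to 5.69 CPM in WT and 2.05 to 4.82 CPM in KO (-0.28, SE 0.18), and Prss35, a protein like serine proteases, at 5.05 to 9.66 and 6.01 to 9.99 CPM (0.090, SE 0.12). Without KO library 18, Nectin3 was at -0.14 and Prss35 at 0.038. With Ttr and Tcf7l2 in the model, Cpne4 was at -0.062, Nectin3 at -0.018, Iyd at -0.18 and Prss35 at 0.18. Coch, which encodes the matrix protein cochlin, spread far more than the others, from 2.23 to 19.7 CPM in WT and from 1.25 to 23.3 CPM in KO, and its log2 fold change of 0.18 had an SE of 0.43.

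CA2 markers held the only gene that was higher in KO at an unadjusted p below 0.05. Ntsr2, a neurotensin receptor that astrocytes also express (chr12:16653382-16660227, plus strand), ran from 62.1 to 81.7 CPM in WT (median 72.3) and from 63.7 to 92.9 CPM in KO (median 84.8). The KO libraries fell into a wider range, with 6 above every WT library and 3 below the WT median. The log2 fold change was 0.17 (SE 0.069, unadjusted p = 0.023). Among 6 astrocyte genes, 4 had a fitted fold change below 0 and 2 above (median -0.0035, 0 called). Rgs14, a scaffold protein that restrains plasticity in CA2, ran from 75.4 to 127 CPM in WT (median 91.5) and from 69.6 to 107 CPM in KO (median 92.5). The medians were close and the log2 fold change was -0.035 (SE 0.081).

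Pcp4, a calmodulin-binding protein, had the highest level of the 29 genes per kilobase of exon (92.9 CPM per kb in WT), and Igsf5 overlaps it on the same strand. It ran from 78.4 to 157 CPM in WT (median 85.7) and from 82.8 to 112 CPM in KO (median 90.1). WT library 15, the lowest of the WT libraries in 5 of the 9 dentate genes, was the highest in Pcp4, and without that library the log2 fold change of -0.069 (SE 0.099) became 0.020. Amigo2, a leucine-rich adhesion protein, ran from 22.9 to 39.3 CPM in WT and 16.6 to 41.1 CPM in KO (-0.049, SE 0.12; reads of Pced1b on the opposite strand may be included), and Necab2, a neuronal calcium-binding protein, from 42.4 to 105 CPM and 66.7 to 81.8 CPM (0.075, SE 0.098), with a fold change of 0.017 without WT library 17 and 0.14 without WT library 1. Cacng6, a calcium channel gamma subunit, was near the floor of the list at 0.65 to 1.48 CPM over both genotypes (0.064, SE 0.18). Sostdc1, a secreted inhibitor of BMP signalling, and Map3k15, a MAP kinase kinase kinase that Pdha1 overlaps on the opposite strand, were spread so widely that their SEs were 0.91 and 0.42, beside log2 fold changes of 0.44 and -0.11.

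Other genes known from the same fields were examined in lists that are not part of the 29, and 0 genes of these lists were called between KO and WT. A further 9 dentate genes were all below 0, with a median log2 fold change of -0.19. Of these, Sema5a, a guidance molecule, ran from 108 to 203 CPM in WT and from 81.5 to 200 CPM in KO (-0.32, SE 0.13, unadjusted p = 0.028). Rfx3, a transcription factor of ciliated cells, followed at -0.21 (SE 0.11) and Npnt, a matrix protein, at -0.22 (SE 0.12). All 3 mossy cell genes were below 0 as well, among them the cytokine receptor gene Csf2rb2 at 2.50 to 6.29 CPM in WT and 2.24 to 4.55 CPM in KO (-0.41, SE 0.17, unadjusted p = 0.024), Drd2 at -0.49 (SE 0.27) and Calb2 at -0.28 (SE 0.28), but with all 23 libraries 2 of the 3 were above 0 (median 0.046). In contrast, 5 of 5 further CA1 genes were above 0 (median 0.17), among them Ccn3 at 0.51 (SE 0.27) and Crym at 0.17 (SE 0.097). The median was 0.025 for 6 further CA3 genes, led by Nrip3 (0.11, SE 0.090), and -0.032 for the 5 of 6 further CA2 genes that were tested. The further CA3 median was -0.054 without the libraries high in Ttr and -0.035 with all 23 libraries, and the further CA1 median was 0.083 with all 23.

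The smallest unadjusted p of the further CA2 genes was that of Tgfb1i1 (0.20, SE 0.089, unadjusted p = 0.038). Genes more active towards the ventral pole were above 0 for 4 of 5 (median 0.18), among them Grp, the gastrin-releasing peptide gene, at 4.12 to 17.3 CPM in WT and 8.33 to 27.5 CPM in KO (0.57, SE 0.25, unadjusted p = 0.032). The 5 genes shared by pyramidal cells had a median of -0.025, which was 0.018 with Ttr and Tcf7l2 in the model and -0.17 with all 23 libraries. Among genes of neighbouring tissue, Tshz2, from the list of neocortex and subiculum, had a log2 fold change of 0.99 (SE 0.45, unadjusted p = 0.041), and Rorb 0.21 (SE 0.092, unadjusted p = 0.030). That list had a median of 0.21, with 5 of 7 genes above 0. Its median was 0.13 without KO library 4 and 0.15 with Ttr and Tcf7l2 in the model, with 0 genes at an unadjusted p below 0.05 in either fit. The striatal gene Penk was at -0.30 (SE 0.14, unadjusted p = 0.042) in a list with a median of -0.18, and the interneuron genes Vip and Pvalb were at 0.43 (SE 0.18, unadjusted p = 0.024) and 0.31 (SE 0.13, unadjusted p = 0.030) in a list with a median of 0.068. The 8 thalamic genes had a median of 0.077, the 3 of 5 habenular genes tested -0.096, and the 6 of 10 choroid plexus genes tested 0.40. The choroid plexus median was 2.28 with DESeq2, where 6 of 6 genes were higher at an unadjusted p below 0.05, but -0.0032 without the libraries high in Ttr and -0.042 with Ttr and Tcf7l2 in the model. For Ttr itself the log2 fold change was 3.13 with DESeq2 and 0.44 with edgeR. It was 3.12 with edgeR without WT library 17, so the size of this difference depended on how that 1 library entered. The cause of the gap between the programs was not tested. The thalamic median was -0.042 without KO library 4, the striatal median 0.0086 with all 23 libraries, and the meningeal fibroblast median -0.15 with Ttr and Tcf7l2 in the model. The part of these tissues in the marker levels was not tested beyond the Ttr and Tcf7l2 terms.

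Subfield balance was described with a score per library, the mean over the markers of a field of log2 CPM relative to the WT mean. No test was made on these scores. The dentate score ran from -0.45 (WT library 15) to 0.34 (WT library 11) in WT, and from -0.70 (KO library 16) to 0.26 (KO library 22) in KO, with a KO mean of -0.22 ± 0.27 (SD, n = 10) and a WT SD of 0.26 (n = 12). The CA1 score ran from -0.29 to 0.42 in WT and from -0.46 to 0.43 in KO, with a KO mean of 0.080 ± 0.29 (SD, n = 10). The difference between the genotype means of the CA1 score ran from 0.041 (without KO library 21) to 0.14 (without KO library 6). For the dentate and the CA1 score alike, the difference between genotypes was smaller than 1 SD between libraries of a genotype. The CA1 score includes Dcn, also a fibroblast gene, which had the largest log2 fold change of the CA1 markers (0.61). A CA1 score without Dcn was not computed. The dentate score minus the CA1 score ran from -0.61 to 0.60 in WT (SD 0.35, n = 12) and from -1.002 to 0.61 in KO (mean -0.30 ± 0.51, SD, n = 10). The 4 KO libraries 4, 13, 16 and 21 lay below every WT library, and KO library 22 lay above every one. By this score over means the KO libraries covered the WT range on both sides, on the upper side through KO library 22 alone (0.61 against at most 0.60 in WT).

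That difference depended on single libraries in size but not in sign. The KO mean of the balance minus the WT mean was -0.40 without KO library 22 and -0.22 without KO library 16. Taken over medians of the markers in place of means, the difference was -0.29, with 5 KO libraries below every WT library. By medians 0 KO libraries lay above every WT library (at most 0.54 in KO and 0.72 in WT), and KO library 22 was at 0.31. The dentate score minus the CA3 score showed less, from -0.31 to 0.38 in WT and from -0.37 to 0.25 in KO (mean -0.12 ± 0.20, SD, n = 10). The CA1 score minus the CA3 score ran from -0.56 to 0.54 in WT and from -0.67 to 0.85 in KO, where 3 KO libraries lay above every WT library and 1 below. The CA3 score includes Coch, which rose with Ttr (below). Without Coch it went from 0.21 to -0.022 in KO library 6 and from 0.19 to -0.19 in KO library 12. In WT library 14 it went from -0.12 to -0.36. Balances without Coch were not computed, so these ranges and counts hold only with Coch in the CA3 score.

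**Figure D3:**
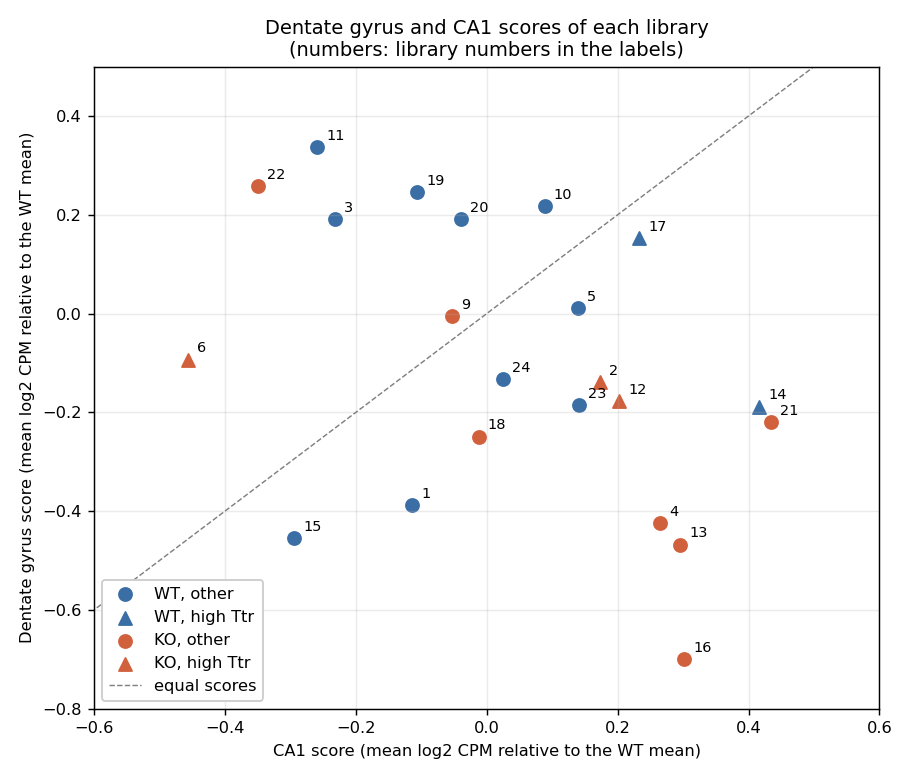
Dentate score (vertical) against CA1 score (horizontal), both as mean log2 CPM relative to the WT mean, for 12 WT (blue) and 10 KO (orange) libraries, where triangles mark the 5 libraries highest in Ttr and the dashed line marks equal scores. KO libraries 4, 13, 16 and 21 lie at the lower right with low dentate and high CA1 scores, and KO library 22 lies at the upper left. The CA1 score includes the fibroblast gene Dcn, which was at its lowest in KO library 22 (6.36 CPM). KO library 6 has the lowest CA1 score of all (-0.46), and KO libraries 2, 4, 9, 12 and 18 lie within the WT range of each score taken alone.

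Markers of 1 field varied together to very different degrees. Correlations of log2 CPM between genes were taken over the 22 libraries after removing each genotype's mean, as a description. The points share library, depth and scaling, so some correlation can come from those. Among the 9 dentate markers, all 36 pairs had a positive Pearson r, with a median of 0.69 (Spearman rho 0.60). Prox1 and Stxbp6 were the closest dentate pair (r = 0.90, rho = 0.92), followed by Prox1 and C1ql2 (r = 0.89, rho = 0.84). The median over pairs was 0.25 in CA1 (rho 0.27), 0.28 in CA3 (rho 0.32) and -0.033 in CA2 (rho 0.0085). Without the libraries high in Ttr it was 0.22 in CA1 (rho 0.16), 0.45 in CA3 (rho 0.43) and 0.095 in CA2 (rho 0.094). Between dentate and CA1 markers, over the 22 libraries, the median was -0.20 (rho -0.21), with 14 of 54 pairs positive. Between dentate and CA3 markers it was 0.26 (rho 0.25), with 45 of 54 pairs positive.

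Within CA3, 4 genes moved as a block while Coch and Bok did not. Cpne4 and Nectin3 had the highest Pearson r of all pairs (r = 0.94, rho = 0.91), and the median r of a gene with its own list was 0.83 for Cpne4, 0.81 for Nectin3, 0.63 for Iyd and 0.63 for Prss35. For Coch that median was -0.41, and for Bok 0.24. Coch varied most closely with Sostdc1 of the CA2 list (r = 0.77, rho = 0.64), and Sostdc1 with Map3k15 (r = 0.88, rho = 0.71). In CA1, Pou3f1 and Lefty1 were the closest pair (r = 0.82, rho = 0.78), and Pou3f1 and Wfs1 were near it (r = 0.79, rho = 0.76). Dcn had a median r of -0.19 with its own list. The CA2 list did not vary as a unit in these libraries, so the CA2 score is a mean over genes with little common variation. Whether a gene marks its field cannot be checked in RNA of a whole hippocampus.

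**Figure D4:**
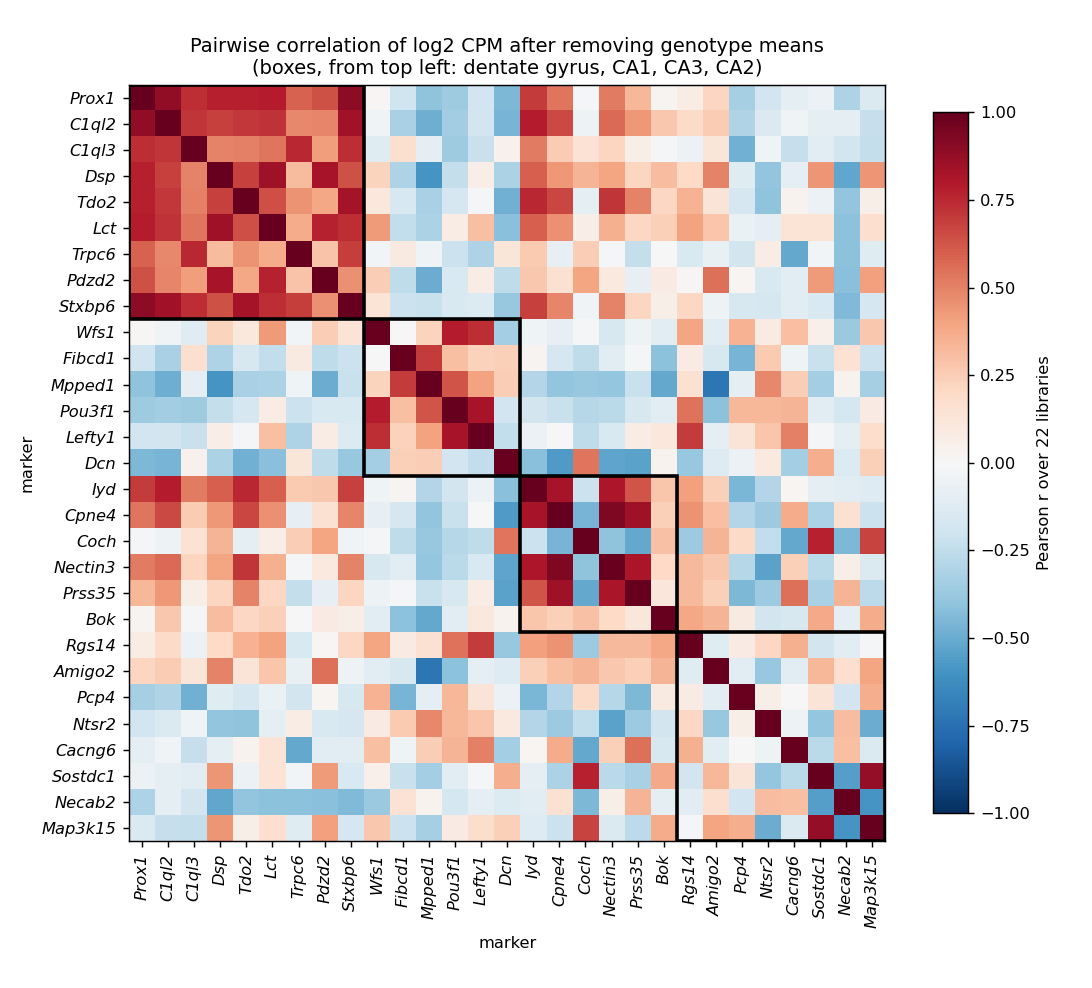
Pearson r of log2 CPM between each pair of the 29 markers over 22 libraries after removing genotype means, from blue (-1) to red (1), with boxes around the dentate, CA1, CA3 and CA2 lists from top left. The dentate box is red throughout, the CA3 box holds a red block of Iyd, Cpne4, Nectin3 and Prss35, and Sostdc1, Map3k15 and Coch are red with each other across lists.

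Ttr, the transthyretin gene of the choroid plexus, separated 5 libraries from the rest. WT libraries 14 and 17 and KO libraries 2, 6 and 12 held 2864 to 18513 CPM of Ttr, and the other 17 held 4.42 to 55.1 CPM. The summed level of 10 choroid plexus genes was 4647 to 29243 CPM in those 5 and 159 to 372 CPM in the others. In a model of genotype, Ttr and Tcf7l2, the Ttr term called 2608 of 15870 genes, 16.4%, and 11.1% rose with Ttr (edgeR quasi-likelihood F test, adjusted p below 0.05). Of the 29 markers 3 were called, 10.3%, and all 3 rose, a share close to the 11.1% of all genes that rose. None of the 9 dentate or 6 CA1 markers was called. All 6 choroid plexus genes tested were called, Ttr itself among them.

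Sostdc1 (chr12:36314139-36318452, plus strand) rose by 0.49 on the log2 scale per doubling of Ttr (SE 0.025, adjusted p = 3.8e-11). Its level was 21.1 to 120.3 CPM in the 5 libraries high in Ttr and 1.88 to 3.69 CPM in the other 17. The ranges did not overlap, and libraries of both genotypes were on each side. Map3k15 (chrX:159988433-160123351, plus strand) rose by 0.19 per doubling (SE 0.029, adjusted p = 5.2e-05), with 2.68 to 14.3 CPM in the 5 libraries and 1.32 to 3.84 CPM in the others. Coch (chr12:51593341-51605771, plus strand) rose by 0.18 (SE 0.034, adjusted p = 0.00054), with 6.95 to 23.3 CPM and 1.25 to 8.71 CPM. For each of these last 2 genes, 3 of the other 17 libraries reached the lowest of the 5. With Ttr and Tcf7l2 in the model, the KO against WT log2 fold change was -0.034 for Sostdc1, -0.22 for Coch and -0.24 for Map3k15. In libraries high in Ttr the levels of these 3 genes therefore go against their label as CA2 or CA3 markers, and they are grouped with those fields here by list only.

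The dentate score was at intermediate levels where Ttr was high. In the 5 libraries high in Ttr it ran from -0.19 to 0.15, inside the range of -0.70 to 0.34 of the other 17. The slopes of the 9 dentate markers on Ttr lay between -0.012 and 0.049. Over the fits without 1 library the slope reached 0.098 for Dsp and 0.060 for Pdzd2, and Dsp was called without KO library 4 (edgeR, adjusted p = 0.037). Without the 5 libraries high in Ttr, the mean dentate score minus CA1 score was 0.068 in WT and -0.38 in KO. The mean dentate score minus CA3 score was then 0.014 in WT and -0.061 in KO, and the mean CA1 score minus CA3 score -0.055 in WT and 0.32 in KO. The CA2 score was 0.25 to 0.75 in the libraries high in Ttr and -0.34 to 0.15 in the others. Without Sostdc1 and Map3k15 it was -0.16 to 0.12 and -0.13 to 0.19, a description only, since these 2 genes were taken out because they rise with Ttr.

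Tcf7l2, a transcription factor of thalamic and habenular neurons, was at 4.39 to 8.36 CPM in WT and 3.95 to 20.8 CPM in KO. KO library 4 held the 20.8 CPM, and the next highest KO library 7.07 CPM. With that library in the fit the Tcf7l2 term called 4 genes, 0.0252%, which were Tcf7l2 itself, Pomc, Tal1 and Hs3st3b1, and 0 of the 29 markers (named after their values were seen). At an unadjusted p below 0.05 were 7 markers, 4 of them dentate, and 2064 genes in all. Without KO library 4 the term called 2669 of 15930 genes, 16.8%, and 4 of the 29 markers. Prox1 fell by 0.93 on the log2 scale per doubling of Tcf7l2 (SE 0.26, adjusted p = 0.018), C1ql2 fell by 0.85 (SE 0.23, adjusted p = 0.018) and Dsp fell by 1.38 (SE 0.44, adjusted p = 0.039) in edgeR's test. Pcp4 rose by 0.80 (SE 0.19, adjusted p = 0.0076). With KO library 4 in the fit these slopes were -0.32 for Prox1, -0.35 for C1ql2, -0.45 for Dsp and 0.16 for Pcp4. Over all genes 1597 fell and 1072 rose with Tcf7l2 in that fit. Genes of other lists were called in the same fit: 3 of 9 further dentate genes, 3 of 6 further CA3 genes and 3 of 5 genes shared by pyramidal cells were called lower, while 3 of 6 striatal, 2 of 8 thalamic (Tcf7l2 itself among them) and 2 of 6 astrocyte genes were called higher. Of the 3 habenular genes tested, Nwd2 was the 1 called, and it fell by 0.79 per doubling (edgeR, adjusted p = 0.0039). Also called were Csf2rb2, Nr3c2 and Rasgrf2, which fell, and Cacng5, Gpc3, Clic6 and Six3, which rose. The summed level of the 8 thalamic genes was 148 CPM in KO library 4, the highest of the 10 KO libraries, and up to 284 CPM in WT. Whether the level of Tcf7l2 followed the amount of thalamic or habenular tissue in these libraries was not tested.

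Of the 4 dentate genes lower in KO at an unadjusted p below 0.05, Prox1 and C1ql2 were called in that term and Trpc6 and Stxbp6 were not, and the difference between their slopes was not tested. Trpc6 had a slope of -0.18 (SE 0.26, adjusted p = 0.69) on Tcf7l2 without KO library 4, and Stxbp6 -0.39 (SE 0.21, adjusted p = 0.20). With both dissection genes in the model and KO library 4 in the fit, the KO against WT log2 fold change was -0.36 for Trpc6, -0.23 for Prox1, -0.18 for C1ql2 and -0.14 for Stxbp6. All 9 dentate fold changes were below 0 in that fit (median -0.16, 1 of 9 at an unadjusted p below 0.05). Its slopes on Tcf7l2 were the flatter ones, such as -0.32 for Prox1. Fold changes from this model without KO library 4 were not taken. Tcf7l2 itself differed between genotypes by 0.37 on the log2 scale (SE 0.22, unadjusted p = 0.10), and by 0.036 without KO library 4.

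**Figure D5:**
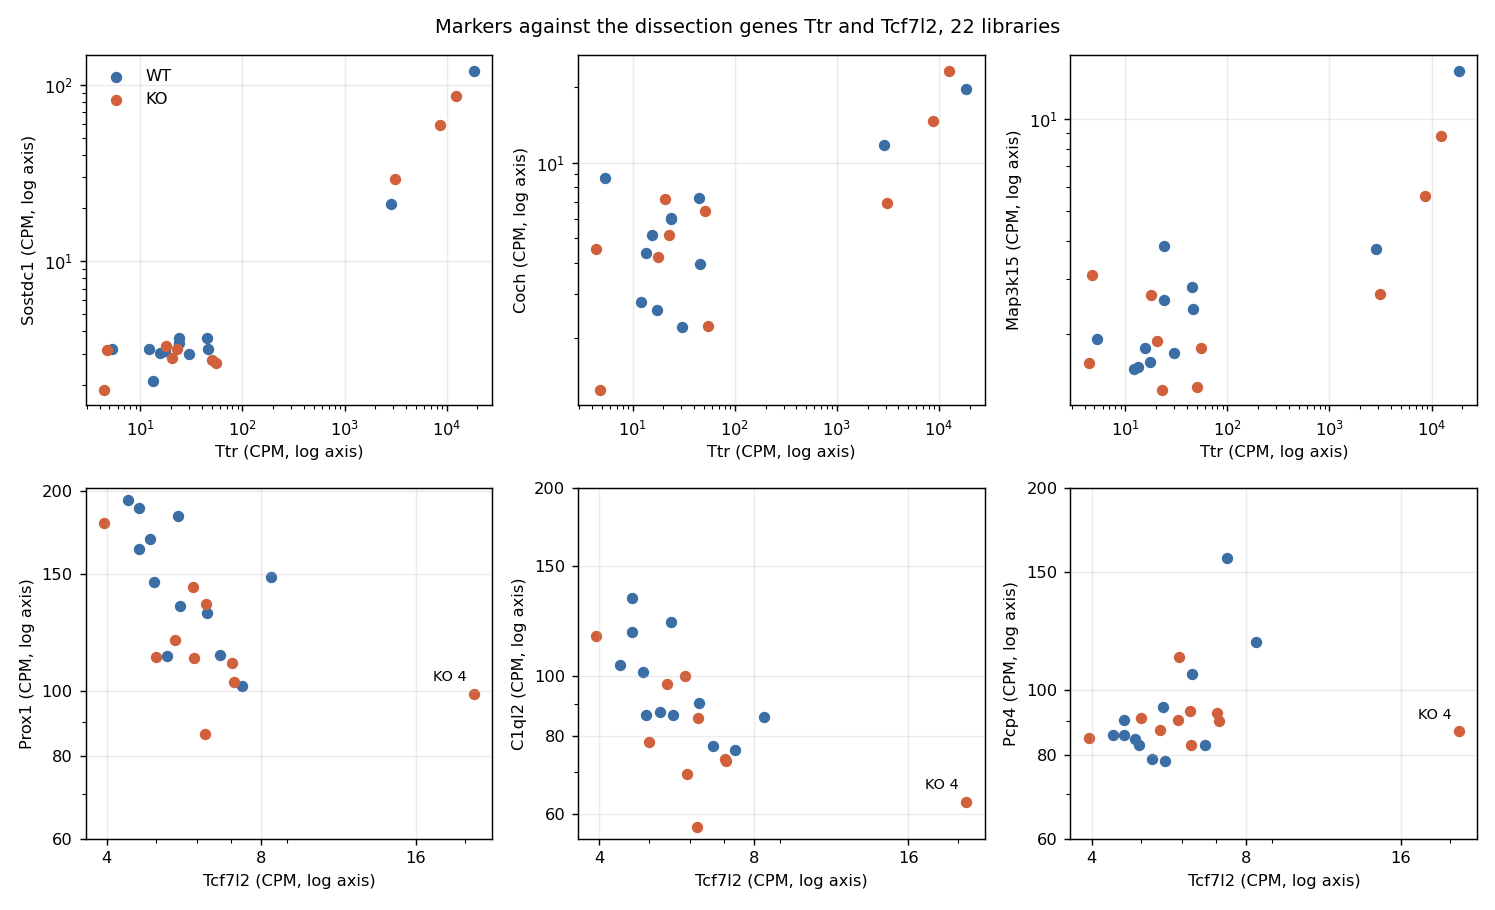
Levels in CPM on log axes of Sostdc1, Coch and Map3k15 against Ttr (top row) and of Prox1, C1ql2 and Pcp4 against Tcf7l2 (bottom row) in 12 WT (blue) and 10 KO (orange) libraries. The 5 libraries above 2000 CPM of Ttr hold the highest Sostdc1 levels, and KO library 4 stands alone at 20.8 CPM of Tcf7l2.

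KO library 8 held little RNA of the dentate markers. Relative to the median of the other 22 libraries they ranged from 0.21% (Lct, 0.12 CPM) to 41.8% (Pdzd2, 26.5 CPM), with Prox1 at 26.9% (35.8 CPM), Stxbp6 at 25.3% (30.3 CPM) and Dsp at 5.14% (3.41 CPM). All 9 dentate markers lay below all 22 others there, as did 25.2% of all genes tested. Its dentate score was -3.39, its CA1 score -2.10, its CA3 score -1.59 and its CA2 score -0.69. Below all 22 others were also 4 of 6 CA1 markers (Fibcd1 at 7.26%, Mpped1 at 25.8%, Pou3f1 at 12.7% and Lefty1 at 4.56% of the median), 5 of 6 CA3 markers (all but Coch) and 4 of 8 CA2 markers (Rgs14 at 8.24%, Cacng6 at 12.4%, Sostdc1 and Necab2). The CA1 markers Wfs1 (73.0 CPM) and Dcn (28.9 CPM), Coch (17.9 CPM) and the CA2 markers Pcp4 (104 CPM), Ntsr2 (90.3 CPM) and Map3k15 (7.59 CPM) lay inside the range of the other libraries. Within that range Coch was at 323% and Map3k15 at 351% of the median, each above 20 of the other 22 libraries. Both exceeded the 17 libraries not high in Ttr (at most 8.71 and 3.84 CPM), while Ttr was at 0.41 CPM in KO library 8. The source of these 2 levels was not tested. Amigo2, at 71.4 CPM, was above all 22 other libraries, as were 20.4% of all genes. Neurod6, a transcription factor of pyramidal cells, was at 0.82 CPM there, against 152 to 261 CPM in the other 22. With this library included, the log2 fold changes of Prox1 and Trpc6 were -0.41 and -0.49, and 0 markers were called. Included as a 23rd library, it also brought the Tcf7l2 term to 20 of 29 markers, against 33.9% of all genes.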

How the data were processed

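A single table covers the 23 hippocampus libraries; its values, as deposited by the authors, are estimated counts, and 24.6% to 27.2% of those above 0 in each library carry decimals. Per the submitters' processing notes, bcl2fastq, STAR and the build mm10 were used. The counting program, its use of strand and the annotation release are not given in the sources used here. Per the labels' protocols, RNA was taken up in Trizol, cleaned on Qiagen columns and turned into stranded mRNA libraries (NEBNext Ultra II).

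After rounding to integers, edgeR 4.0.16 under R 4.3.3 compared the counts (filterByExpr by genotype, TMM scaling, robust quasi-likelihood F test), with Benjamini-Hochberg adjustment over 15870 genes and a threshold of 0.05. These genes held 99.86% of the counts. Each SE is the size of the log2 fold change divided by the square root of F. The comparison used 12 WT and 10 KO libraries without KO library 8. Ttr and Tcf7l2 entered a second model as centred log2 CPM with a prior count of 2. CPM values use the TMM-scaled totals, except for Ins2, and levels between genes are per kilobase of merged exons (GENCODE M21, GRCm38, matched by identifier). Intervals for 0 counts cover counting error only. The scripts were tested on simulated data.

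The 29 genes and the other lists were chosen with earlier results of these data known. Named genes are the 29, Ins2, Ttr, Tcf7l2, up to 3 genes with the smallest p of each other list and any called there; others were named after their values were seen. Not every gene that rule allows is printed. The alternatives were all 23 libraries, RLE size factors, DESeq2 1.42.0, no filter beyond a total of 1 count, a mean of at least 50 counts, Ttr and Tcf7l2 as covariates, leaving out the 5 libraries with Ttr over 10 times its median or the 1 with Tcf7l2 over 2 times its median (KO library 4), and leaving out each library in turn. Columns were matched by library name, and 0 were left unmatched.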

Additional observations from a re-analysis of the deposited data

Results flagged for a closer look

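Among the 10 KO libraries, 31 genes were examined for a single library far from the others, the 29 markers with Ttr and Tcf7l2. About 1 gene in 20 is expected to show such a gap by chance, and 2 did. Pcp4 was at 112 CPM in KO library 21, and the next highest KO library held 92.9 CPM. Tcf7l2 was at 20.8 CPM in KO library 4, and the next highest held 7.07 CPM.

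KO library 8, left out of the main comparison and included only where all 23 libraries are named, held a signal above all WT libraries for 2 of the 29 markers. In all, 20.4% of the genes tested were above all 22 other libraries there, as was 1 of the markers, Amigo2. Amigo2 was at 71.4 CPM there, against at most 39.3 CPM in WT. Ntsr2 was at 90.3 CPM, against at most 81.7 CPM in WT. All 12 hypothalamic genes were above all 22 other libraries in the same library, and their part in these 2 levels was not tested.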

How the results depend on the processing

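The count of markers called between KO and WT was 0 in all 8 alternatives and all 22 fits without 1 library. Over all genes the count was 2, and it was 1 with a mean of at least 50 counts (fewer genes tested), 3 with DESeq2, and 2 to 3 without 1 library. The genes at an unadjusted p below 0.05 numbered 652, then 909 with all 23 libraries, 1287 with no filter, 1284 without the libraries high in Ttr, 756 with DESeq2, 592 with Ttr and Tcf7l2 as covariates and 494 without KO library 4. The markers at that level were 6, 3 with Ttr and Tcf7l2 as covariates, 3 without KO library 4, and 3 to 8 over the fits without 1 library.

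The Ttr term called 2608 genes, with 1508 (without KO library 12) to 2721 over the fits without 1 library, and 3 to 4 markers, Dsp being added without KO library 4. The Tcf7l2 term called 4 genes, 1 with a mean of at least 50 counts and 5361 with all 23 libraries, and 2 (without KO library 22) to 2669 (without KO library 4) over the fits without 1 library. It called 0 markers, 20 with all 23 libraries and 0 to 4 without 1 library. The cause of these shifts was not tested.

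Of the 29 markers, 18 kept the sign of the fold change in every fit and 9 dentate markers are among them. With all 23 libraries the log2 fold change changed sign for Fibcd1 (-0.054), Pou3f1 (-0.037), Prss35 (-0.012), Amigo2 (0.13), Cacng6 (-0.059), Necab2 (-0.0044) and Map3k15 (0.068). With Ttr and Tcf7l2 as covariates it changed for Coch (-0.22) and Sostdc1 (-0.034), and without the libraries high in Ttr also for both (-0.16 and -0.17). Leaving out 1 library changed it for 7 markers, whose ranges were -0.20 (without KO library 12) to 0.45 for Coch, -0.26 (without KO library 12) to 2.04 (without WT library 17) for Sostdc1, -0.065 to 0.016 (without WT library 5) for Rgs14, -0.12 to 0.020 (without KO library 16) for Amigo2, -0.11 to 0.020 (without WT library 15) for Pcp4, -0.016 (without KO library 21) to 0.13 for Cacng6 and -0.45 to 0.40 (without WT library 17) for Map3k15. None of these genes was called between KO and WT in any fit. Cacng6 gave no value with a mean of at least 50 counts. No paired analysis was made because the labels name no pairs. The library numbers run once over both genotypes, so they do not show whether any libraries were paired.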
